A study of Mus musculus with 9 samples.

Results

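The nuclear genes of the mitochondrial respiratory chain were followed by complex through 3 groups of mouse pancreatic tumour cells taken from lung. Members were all genes of the deposited expression table whose symbols begin with Ndufa, Ndufb, Ndufc, Ndufs, Ndufv, Uqcr, Atp5, Cox4i, Cox5, Cox6, Cox7 or Cox8, together with Sdha, Sdhb, Sdhc, Sdhd, Cyc1 and Cycs, and without names that carry -ps. The rule took 89 of 24012 genes. Of these, 76 code for subunits (36 of complex I, 4 of complex II, 9 of complex III, 11 of complex IV, 15 of complex V, and cytochrome c), 6 are tissue-restricted isoforms or relatives of complex IV subunits, and 7 carry a matching name without being subunits. The subunits encoded by mitochondrial DNA and the isoforms Cox4i2, Cox6a2 and Ndufa4l2 were not analysed here.

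The respiratory chain passes electrons from NADH through complex I, and from succinate through complex II, to ubiquinone, then through complex III and cytochrome c to complex IV, which reduces oxygen. Complexes I, III and IV pump protons out of the mitochondrial matrix, and complex V, the ATP synthase, uses their return to make ATP. Complex II is also an enzyme of the citric acid cycle and is coded by nuclear genes alone, whereas the other complexes mix nuclear and mitochondrial subunits and need their own assembly factors.

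The cells were pancreatic ductal adenocarcinoma (PDAC) cells with GFP and a Gstt1-mCherry reporter, recovered from the lungs of mice injected through the tail vein. All groups carried the genotype SIRT6F/F/p48-Cre/p53F/+KrasL/+, in which the p48-Cre driver acts in the pancreas. mCherryLow and mCherryHigh cells were sorted on GFP and on low or high mCherry 6 weeks after injection, and DTC cells were sorted on GFP alone at 5 days. Each group had 3 libraries, numbered 1, 5 and 6 in the 6-week groups and 1, 2 and 3 in DTC. Nothing in the labels ties a library to a mouse of its own, so p-values measure the spread between libraries, which may be technical. The 5-day time, the GFP gate and the code series of the label descriptions all coincide with DTC and cannot be told apart.

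Levels are in CPM, the reads of a gene relative to all reads of its library, and the deposited values gave back whole reads, 643748 to 11861241 per library and at most 2052623 in DTC. Gstt1, the gene of the reporter, had a mean of 18.8 ± 9.32 CPM (SD, n = 3) in mCherryLow, 53.3 ± 6.44 CPM in mCherryHigh and 8.29 ± 2.63 CPM in DTC. Markers of pancreatic tumour epithelium (7 genes: Krt19, Krt8, Krt18, Krt7, Epcam, Cdh1 and Sox9) were above 0 in all 9 libraries. Their summed levels were 1788 to 2571 CPM in mCherryLow, 2118 to 5939 CPM in mCherryHigh and 445 to 6058 CPM in DTC, with the lowest in DTC 3. Of the 7, 1 was called higher and 0 lower in DTC than in mCherryLow, and 0 either way against mCherryHigh. Markers of macrophages (18 genes) summed to 524 to 2744 CPM, 812 to 1814 CPM and 4792 to 9909 CPM in the same order, and 13 of the 18 were called higher in DTC than in mCherryLow and 12 of 18 higher than in mCherryHigh. Markers of endothelium (10 genes) summed to 30.4 to 41.2 CPM in mCherryLow, 47.0 to 55.9 CPM in mCherryHigh and 247 to 509 CPM in DTC. Markers of T and NK cells (6 of 6 tested), of alveolar and club cells (5 of 6) and of heart and skeletal muscle (5 of 7) were also called higher in DTC than in mCherryLow. Against mCherryHigh these counts were 6 of 6, 5 of 6 and 3 of 7, with 1 muscle gene called lower. Several of these markers, such as Cd3d, Cd3g, Cd4, Sftpc and Mb, were under 1 CPM in every mCherryLow library. They passed the filter on low values through the DTC libraries alone and so had to differ. The same holds for Cd3g and Gzma against mCherryHigh, and calls of such genes carry no weight. The share of all genes called higher in DTC was 34.2% against mCherryLow and 23.0% against mCherryHigh. In DTC no marker of macrophages or endothelium was at 0. Of the 18 macrophage genes, 0, 5 and 8 were at 0 in mCherryLow 1, 5 and 6, and 2, 6 and 5 in mCherryHigh 1, 5 and 6. Complement genes of the C1q family were among those at 0, but mCherryLow 1 had C1qb at 25.8 CPM and C1qc at 29.3 CPM. The part of other cells in the differences between DTC and the 6-week groups was not tested, and in bulk samples fewer cells of a type and less RNA per cell cannot be told apart.

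Among the subunits, levels per transcript length spanned a wide range. In mCherryLow the highest level per kilobase was that of Atp5b, the catalytic beta subunit of the ATP synthase, at 886 CPM per kilobase, and it was 815 in mCherryHigh and 269 in DTC. Cox4i1, the common form of a regulatory complex IV subunit, followed at 725, 559 and 455 CPM per kilobase. In complex III the range in mCherryLow ran from 118 CPM per kilobase for the core protein Uqcrc2 to 567 for the small subunit Uqcrq, and in complex II from 91.0 for the membrane anchor Sdhc to 277 for the iron-sulfur subunit Sdhb. In complex I it ran from 9.08 for the membrane arm subunit Ndufb4 to 396 for Ndufb9. A few subunits lay far below their partners in the 6-week groups: Cox7c of complex IV at 9.19 CPM per kilobase in mCherryLow, cytochrome c (Cycs) at 2.35, and the ATP synthase ring gene Atp5g2 at 0.37. The other ring genes, which code for the same mature protein, were at 10.1 CPM per kilobase for Atp5g1 and 497 for Atp5g3.

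Summed over subunits, the 3 groups stood in order. All 76 subunits together took 15618, 16413 and 13950 CPM in mCherryLow 1, 5 and 6, 13992, 12441 and 13020 CPM in mCherryHigh, and 10441, 9841 and 7377 CPM in DTC 1, 2 and 3. DTC was below every 6-week library, and mCherryHigh 1 lay within the mCherryLow range. Complex II was at 1307, 1410 and 1206 CPM in mCherryLow, against 1118, 1090 and 953 CPM in mCherryHigh and 465, 565 and 301 CPM in DTC, with no overlap between any of the 3 groups. Complex IV was at 2775, 2497 and 2165 CPM, 2075, 1972 and 2442 CPM, and 2191, 1849 and 1678 CPM, and its groups overlapped.

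**Figure D1:**
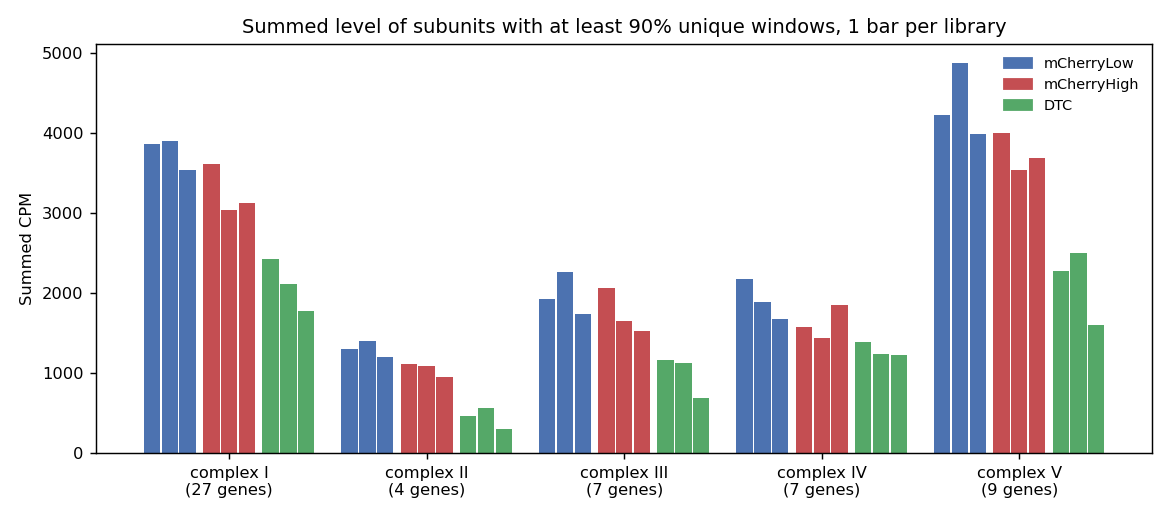
Summed CPM (vertical axis) of the subunits of each complex (horizontal axis) whose transcripts are at least 90% unique in sequence, 1 bar per library, in the order mCherryLow 1, 5 and 6, mCherryHigh 1, 5 and 6, and DTC 1, 2 and 3. DTC bars are the lowest in each complex, and complex II shows 3 separate levels.

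The first comparison asked what distinguishes the cells with a high Gstt1 reporter from those with a low one at 6 weeks. Most respiratory chain subunits were slightly lower in mCherryHigh, and none passed the test (limma, Benjamini-Hochberg over 15437 genes, threshold 0.05). The filter on low values kept 75 of the 76 subunits, and 69 of the 75 had a negative difference, with a median of -0.22 on the log2(CPM + 1) scale. Over all genes tested, 43.6% of differences were negative and the median was 0.09, or -0.02 for those with a mean of at least 20 CPM. The share called was 0% in each direction, over all genes and over members, and the smallest adjusted p of any gene by limma was 0.444. Without adjustment 1448 genes had a p under 0.05, 3 of them members. Also called were 0 genes by edgeR, and 49 higher and 99 lower by DESeq2, of which 0 were members. In 12 of the 75 subunits every mCherryHigh library lay below every mCherryLow library, which was so for 5.78% of all genes tested. Of these 12, 6 were among the 54 subunits at least 90% unique in sequence and 6 among the 21 others tested.

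By complex, the medians in mCherryHigh minus mCherryLow were -0.21 for complex I (34 of 36 negative), -0.31 for complex II (4 of 4), -0.18 for complex III (9 of 9), -0.17 for complex IV (9 of 11) and -0.28 for complex V (12 of 14 tested). Ndufb8, an accessory subunit of the complex I membrane arm that is lost when the complex does not assemble, was at 253, 268 and 279 CPM in mCherryLow, against 158, 202 and 217 CPM for mCherryHigh. The groups did not overlap, and the difference was -0.48 (SE 0.21, limma adjusted p = 0.545). Sdhd, the small membrane anchor of complex II, was at 302, 257 and 226 CPM against 177, 219 and 183 CPM, again without overlap, with a difference of -0.44 (limma adjusted p = 0.575). Sdha, the flavoprotein subunit of complex II, differed by -0.45 with overlapping groups (mCherryLow 417, 535 and 369 CPM, mCherryHigh 334, 402 and 242 CPM). The membrane arm held 6 of the 12 subunits without overlap: Ndufb6 (-0.83), Ndufs5 (-0.73), Ndufa13 (-0.54), Ndufb10 (-0.50), Ndufb8 and Ndufb7 (-0.40). The 7 subunits of the conserved catalytic core of complex I, Ndufv1, Ndufs1 and Ndufs8 among them, had a median of -0.14, and 0 of them were without overlap. In the ATP synthase, Atp5a1, the alpha subunit of the head, differed by -0.33 and Atp5o, which joins head and stalk, by -0.35, each without overlap.

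Label codes place mCherryLow 1 and mCherryHigh 1 in a series called CFa10, and mCherryLow 5, mCherryLow 6 and mCherryHigh 5 in CFa12. Within CFa10, 53 of 75 subunits were lower in mCherryHigh, with a median of -0.41 beside 0.16 for all genes. Within CFa12, 67 of 75 were lower, with a median of -0.30 beside 0.08. CFa10 sets 1 library against 1. The core of complex I had a median of 0.30 in CFa10, where 1 of 7 genes was lower, and -0.32 in CFa12, where 6 of 7 were lower, and the quinone-binding module of complex I, which holds part of the core, had 0.22 and -0.31. mCherryHigh 6 stands in a series without an mCherryLow library. The 5 complex medians stayed negative under all alternatives run, including edgeR and DESeq2 on the recovered reads, the other scalings and leaving out each library. The complex IV median moved most in relation to its size, from -0.17 to -0.04 without mCherryLow 1, -0.07 without mCherryHigh 5, -0.32 without mCherryHigh 6 and -0.35 without mCherryLow 6.

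The second comparison set the DTC cells of day 5 against mCherryLow. Here 23 of the 76 subunits fell, among them all of complex II, 6 of the 7 core subunits of complex I and 4 of the 5 subunits of the ATP synthase head, and 8 rose, among them cytochrome c and Cox7c (limma, adjusted over 18701 genes). Over all genes tested, 34.2% were called higher and 8.87% lower. The 8 include Atp5g2, which passed the filter through the DTC libraries alone and so had to differ. The median difference of the subunits was -0.60 on the log2(CPM + 1) scale, beside 0.59 for all genes tested and -0.23 for those with a mean of at least 20 CPM. With edgeR on the recovered reads, 6 members were called higher and 44 lower, where edgeR called 4558 of all genes higher and 3095 lower. Quantile scaling gave 7 and 12 members, where the main counts over all 89 names were 9 and 23. Scaling shifted the median of all genes from 0.59 to 0.26 with TMM factors and to -0.14 with quantiles, and that of the subunits to -0.99 and -0.30.

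**Figure D2:**
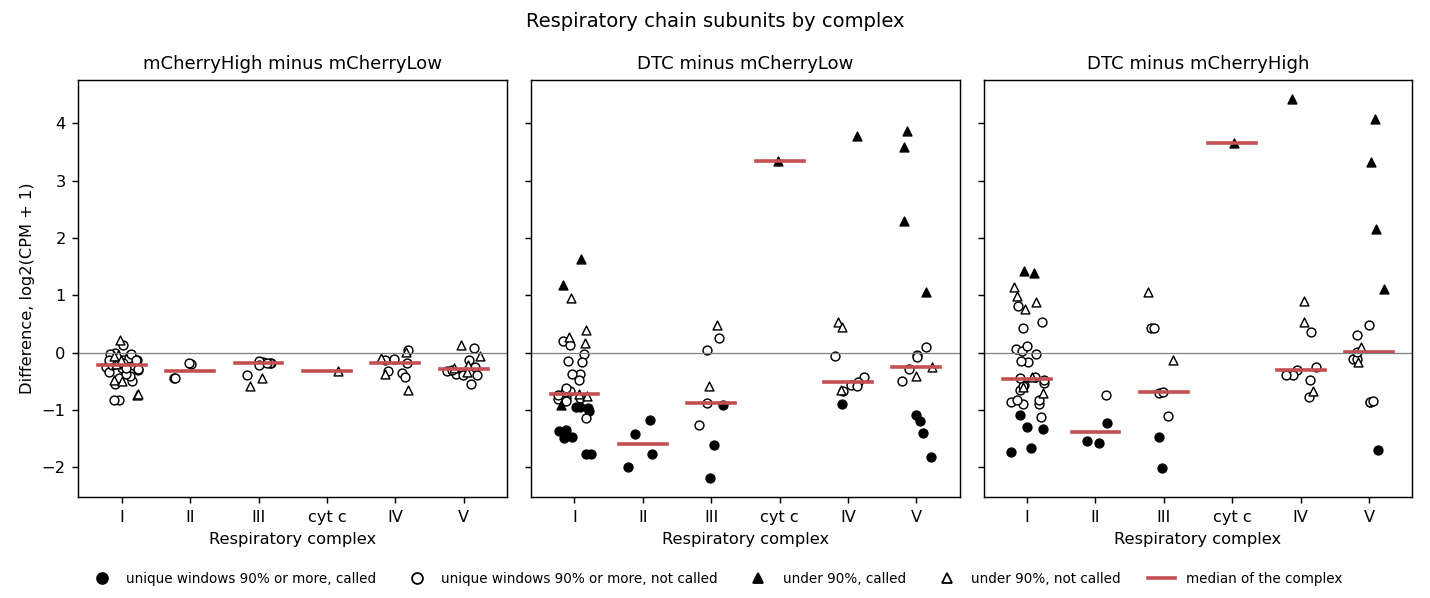
Difference in log2(CPM + 1) (vertical axis) for each subunit, by complex (horizontal axis), in the 3 comparisons; filled symbols passed limma's threshold, triangles have under 90% unique sequence windows and red lines are medians. Complex II lies wholly below 0 in both DTC panels, and the highest values belong to triangles of complexes IV and V and to cytochrome c.

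All 4 genes of complex II fell in DTC, with a median of -1.59, where 8.87% of all genes did. Sdha was at 116, 117 and 95.2 CPM in DTC against 417, 535 and 369 CPM in mCherryLow, 3.97-fold lower (difference -1.99, SE 0.32, limma adjusted p = 0.000896). Its DTC libraries lay close together, all below the lowest mCherryLow library. Sdhc fell by 1.76 (101, 128 and 46.5 CPM against 298, 262 and 306 CPM), Sdhb by 1.42 and Sdhd by 1.18. DTC 3 had the lowest level of each. Without DTC 3 the count called was 3 of 4, and with any mCherryLow library or DTC 1 left out it was also 3 of 4. The median stayed between -1.79 and -1.30 when each library was left out, and it was -1.21 with quantile scaling and -2.05 with edgeR.

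In complex I, 11 of 36 subunits fell and 2 rose, with a median of -0.73. Over all genes tested 8.87% fell and 34.2% rose, so the rises were a smaller share than among all genes. Of the 7 core subunits 6 fell, with a median of -1.36, and of the 29 accessory subunits 5 fell and 2 rose, with a median of -0.61. Ndufv1, which binds NADH and FMN, was at 81.4, 117 and 48.7 CPM in DTC against 233, 283 and 284 CPM (difference -1.76, SE 0.38, limma adjusted p = 0.00363). The groups were far apart. Ndufa9, which sits at the quinone site, fell by 1.77, and the iron-sulfur subunit Ndufs8 by 1.49. Ndufa8, an accessory subunit imported through the intermembrane space, fell by 1.37, and Ndufb8 was at 139, 161 and 128 CPM, a fall of 0.91 (limma adjusted p = 0.0347) that was not called with quantile scaling (-0.45) or without DTC 1 or any 1 of the mCherryLow libraries. By position, the quinone-binding module had 4 of 8 lower and a median of -1.05, the NADH-binding module 3 of 8 and -0.54, and the membrane arm 4 of 20 and -0.69 with 2 higher. The falls among the core lay in both matrix modules, 3 in each.

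In complex III, 3 of 9 subunits fell, with a median of -0.87, where 8.87% of all genes did. The core protein Uqcrc1 had the lowest difference of all members: 120.3, 212 and 86.6 CPM in DTC against 527, 776 and 519 CPM, 4.55-fold lower (difference -2.19, SE 0.39, limma adjusted p = 0.00132). Its partner Uqcrc2 fell by 1.61, and the Rieske iron-sulfur protein Uqcrfs1 by 0.91. Cyc1, the cytochrome that hands electrons to cytochrome c, was at 197, 266 and 64.9 CPM against 321, 481 and 311 CPM, without overlap, and did not pass (difference -1.26, limma adjusted p = 0.0524). It was called under 5 of 17 alternatives, edgeR and DESeq2 among them. The small subunits Uqcrq and Uqcrh were at differences of 0.04 and 0.25 and overlapped. In 6 of the 9 subunits every DTC library lay below every mCherryLow library, which was so for 14.2% of all genes tested. Both edgeR and DESeq2 called 6 of 9 lower, beside 3095 and 2945 of all 18701 genes. The calls for Uqcrc1 and Uqcrc2 held under all alternatives, and that for Uqcrfs1 was lost without any 1 of the 6 libraries.

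In complex IV, 1 of 11 common subunits fell and 1 rose by limma, with a median of -0.51, where 8.87% of all genes fell and 34.2% rose. By contrast, edgeR called 7 lower and DESeq2 6, beside 3095 and 2945 of all 18701 genes. Cox6b1, which faces the intermembrane space, fell by 0.90 (203, 211 and 171 CPM against 425, 328 and 343 CPM), a call that was lost with quantile scaling and without DTC 1, DTC 3 or any 1 of the mCherryLow libraries. Cox4i1 was at 394, 283 and 339 CPM against 587, 604 and 431 CPM, without overlap and short of the threshold (-0.67, limma adjusted p = 0.112), and it was called by edgeR, by DESeq2 and with TMM or median-of-ratios scaling. Cox5a, which pairs with it, differed by -0.07. With quantile scaling the complex IV median was -0.04, and with edgeR it was -1.01.

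In the F1 head of the ATP synthase 4 of 5 subunits fell, with a median of -1.18, where 8.87% of all genes did. In the stalk and membrane part 4 of 10 rose and 0 fell, with a median of 0.03, where 34.2% of all genes rose. All 4, which include Atp5g2 with its filter limit, were among the 6 genes of that part whose sequence is shared with other genes, as given further on. Of the 4 other genes of the stalk and membrane part 0 were called, with a median of -0.05. Atp5b was at 421, 807 and 316 CPM in DTC against 1578, 1933 and 1581 CPM in mCherryLow, 3.55-fold lower (difference -1.83, SE 0.38, limma adjusted p = 0.00301). All DTC libraries were below all others. Atp5c1, the central shaft, fell by 1.40, Atp5a1 by 1.18 and Atp5d by 1.09. Atp5g3, the third ring gene, was level at 343, 362 and 327 CPM against 310.1, 411 and 345 CPM (difference -0.04). The median of all 15 genes was -0.24, and it changed sign with quantile scaling (0.11).

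**Figure D3:**
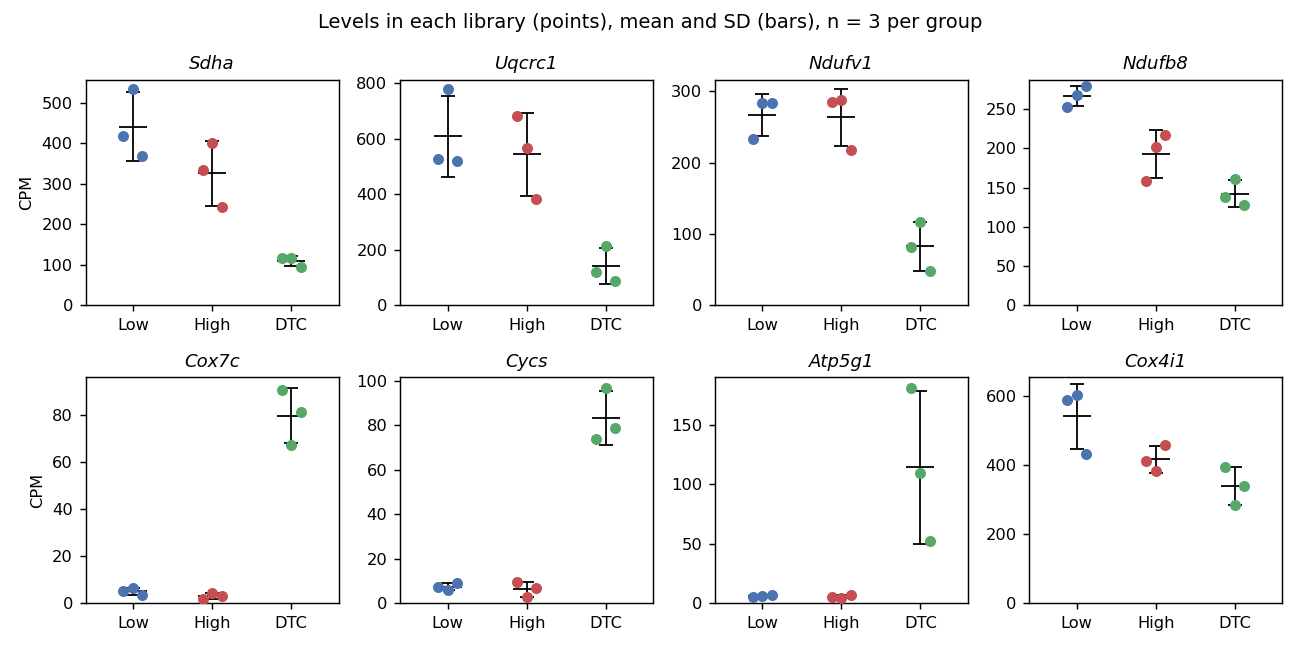
CPM (vertical axis, from 0) of 8 members in each library (points) by group (horizontal axis), with the mean and SD (n = 3). Sdha, Uqcrc1 and Ndufv1 lie low in DTC, Ndufb8 is highest in mCherryLow, Cox7c, Cycs and Atp5g1 are near the bottom in both 6-week groups and high in DTC, and Cox4i1 overlaps between mCherryLow and mCherryHigh.

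The 8 subunits that rose included 5 with under 10 CPM in every 6-week library. Cox7c, a small subunit of complex IV, was at 4.88, 6.48 and 3.54 CPM in mCherryLow (10, 69 and 42 reads), 1.55, 4.18 and 2.86 CPM in mCherryHigh (1, 41 and 28 reads), and 90.6, 67.2 and 81.2 CPM in DTC (119, 138 and 75 reads). The difference from mCherryLow was 3.78 (SE 0.47, limma adjusted p = 0.000403). Cycs, which carries electrons between complexes III and IV and triggers apoptosis from the cytosol, was at 7.31, 5.73 and 9.02 CPM, then 9.32, 2.65 and 6.75 CPM, then 73.8, 96.9 and 79.0 CPM, a difference of 3.34 (SE 0.44, limma adjusted p = 0.000436). Each DTC library was far above every 6-week library for both genes. Atp5g1 was at 5.36, 5.92 and 6.83 CPM in mCherryLow and 181, 109.6 and 51.9 CPM in DTC (3.87, limma adjusted p = 0.000476). Atp5g2 had 1, 0 and 0 reads in mCherryLow, 1, 0 and 0 in mCherryHigh and 24, 50 and 4 in DTC, too few for a fold. It passed the filter through the DTC libraries alone and so had to differ; without it 7 subunits rose. Atp5l, a membrane subunit that joins ATP synthase dimers, rose by 2.30 from 0.939 to 1.46 CPM per library to 7.58 to 15.2 CPM. The other risers were Ndufb2 (1.64), Ndufab1, the mitochondrial acyl carrier protein (1.19), and Atp5h (1.06), of which edgeR did not call Ndufab1 and Atp5h.

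These 8 genes share a feature that the naming rule did not use: each has sequence in common with other annotated genes. For each member, the share of 50-base windows of 1 chosen transcript that occur in no other gene's transcripts was computed from GENCODE M21 (GRCm38). It was 0% for Atp5g2, 31.5% for Atp5l, 34.0% for Atp5g1, 47.0% for Cox7c, 49.5% for Atp5h, 68.8% for Ndufab1, 71.8% for Cycs and 75.6% for Ndufb2. Most of the shared windows of Cox7c, Atp5g1, Atp5g2 and Atp5l lie in processed pseudogenes, which are copies of spliced messenger RNA set back into the genome. To show how far the copies reach, the coding sequences of 3 such genes, of Ndufb2 as a partly shared one and of Cox8a, another short complex IV subunit, as an unshared one are printed 5′ to 3′. Capitals mark bases that lie in a 50-base window found in another gene, and lower case marks bases that do not. The transcripts lie at chr13:86044816-86046904 (Cox7c), chr6:50562563-50566538 (Cycs), chr11:96072990-96075619 (Atp5g1), chr6:39592583-39599471 (Ndufb2) and chr19:7215153-7217616 (Cox8a) in GRCm38, Ndufb2 on the plus strand and the others on the minus strand, and the first 300 coding bases are given where there are more.
Cox7c: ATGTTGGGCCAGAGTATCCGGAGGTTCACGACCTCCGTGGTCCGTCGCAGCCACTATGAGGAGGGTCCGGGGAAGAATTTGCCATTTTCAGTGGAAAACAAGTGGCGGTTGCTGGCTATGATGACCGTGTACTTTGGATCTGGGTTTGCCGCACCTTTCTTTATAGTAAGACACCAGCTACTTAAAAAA
Cycs: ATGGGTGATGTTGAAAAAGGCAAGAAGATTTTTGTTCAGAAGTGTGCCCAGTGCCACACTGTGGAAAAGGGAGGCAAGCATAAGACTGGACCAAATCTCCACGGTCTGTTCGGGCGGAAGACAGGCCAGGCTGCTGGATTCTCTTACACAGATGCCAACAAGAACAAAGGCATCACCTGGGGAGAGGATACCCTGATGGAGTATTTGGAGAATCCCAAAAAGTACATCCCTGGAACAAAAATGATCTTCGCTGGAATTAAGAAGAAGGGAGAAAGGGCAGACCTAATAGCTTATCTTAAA
Atp5g1: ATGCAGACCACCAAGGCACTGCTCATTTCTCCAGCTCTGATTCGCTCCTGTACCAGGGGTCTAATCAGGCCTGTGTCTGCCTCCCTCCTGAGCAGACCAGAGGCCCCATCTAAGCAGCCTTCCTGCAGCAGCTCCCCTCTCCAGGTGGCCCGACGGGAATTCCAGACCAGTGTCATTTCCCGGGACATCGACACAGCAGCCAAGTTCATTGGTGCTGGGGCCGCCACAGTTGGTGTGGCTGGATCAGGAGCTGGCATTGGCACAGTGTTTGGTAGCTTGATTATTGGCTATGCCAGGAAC
Ndufb2: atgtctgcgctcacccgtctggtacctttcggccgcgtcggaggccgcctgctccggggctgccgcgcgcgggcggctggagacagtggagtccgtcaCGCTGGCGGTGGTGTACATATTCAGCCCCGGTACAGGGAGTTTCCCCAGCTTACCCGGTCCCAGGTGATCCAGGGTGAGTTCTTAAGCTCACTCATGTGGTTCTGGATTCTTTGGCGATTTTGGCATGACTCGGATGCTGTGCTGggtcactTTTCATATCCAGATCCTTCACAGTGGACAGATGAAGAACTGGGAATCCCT
Cox8a: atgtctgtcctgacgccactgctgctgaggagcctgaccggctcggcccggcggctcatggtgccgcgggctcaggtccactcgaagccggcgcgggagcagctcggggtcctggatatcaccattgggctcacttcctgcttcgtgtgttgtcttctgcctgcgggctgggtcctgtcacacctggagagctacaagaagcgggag
All 189 coding bases of Cox7c, all 315 of Cycs and all 408 of Atp5g1 were in shared windows, against 197 of 315 in Ndufb2 and 0 of 207 in Cox8a. Cox8a was at 247, 198 and 160.2 CPM in DTC and 330.0, 252 and 274 CPM in mCherryLow, a difference of -0.51. How the authors' counting treated reads that match several genes is not given in the sources used here, so levels of the genes with shared windows are uncertain.

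Among subunits with at least 90% unique windows, 0 of 54 rose and 22 fell in DTC against mCherryLow, with a median of -0.81. Among the 22 under 90%, 8 rose and 1, Ndufb8, fell, with a median of 0.47. The 8 include Atp5g2, which passed the filter through the DTC libraries alone and so had to differ. Across the 76 subunits the difference fell with uniqueness (Spearman -0.63), a description over genes that share the same 6 libraries. Over the whole table, genes under 90% had a median of 1.07, with 42.5% called higher, and genes at or above it a median of 0.44, with 31.7% called higher. Genes at or above 90% with a mean of at least 20 CPM had a median of -0.29, with 16.9% called lower. The summed level of the 54 unique subunits was 13494, 14334 and 12158 CPM in mCherryLow and 7737, 7565 and 5603 CPM in DTC, and that of the 22 others was 2124, 2078 and 1792 CPM and 2704, 2276 and 1774 CPM. The first sums did not overlap and the second did. In the deposited table the DTC columns carried up to 15 significant digits and the listed genes summed to 983174 to 992318 CPM, where the other columns carried up to 10 digits and summed to at least 997997 CPM, and whether this difference between the columns bears on shared sequence was not tested.

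**Figure D4:**
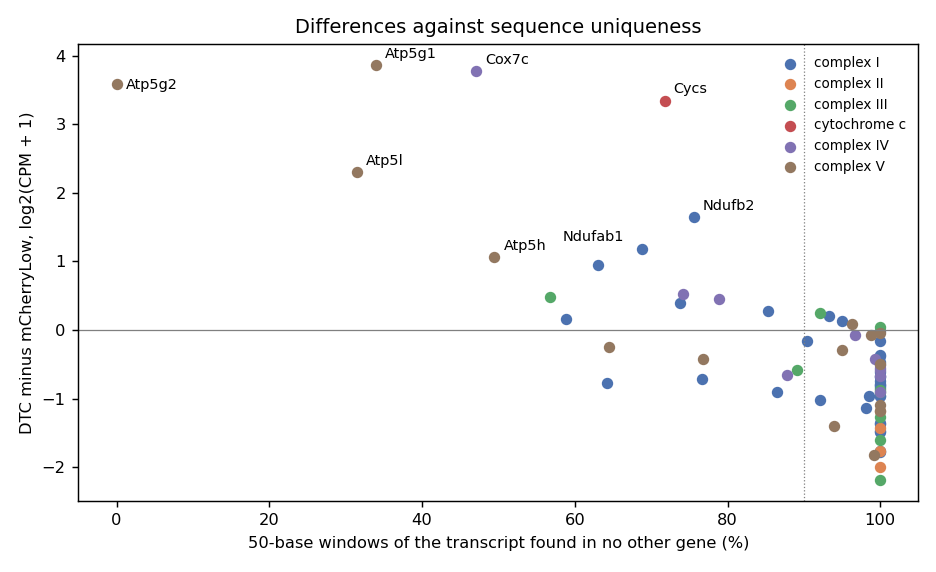
Difference DTC minus mCherryLow in log2(CPM + 1) (vertical axis) against the percentage of 50-base windows of the transcript found in no other gene (horizontal axis) for the 76 subunits, coloured by complex; the dotted line is at 90%. All labelled genes, the 8 that rose, lie left of the line, and complex II sits at its right end.

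The 54 unique subunits were also set out by transcript length. Of 31 subunits under 1000 bases 6 fell, with a median of -0.56, and of 18 between 1000 and 2000 bases 12 fell, with a median of -1.31. Of the 5 longer ones, Sdha, Sdhc, Atp5a1, Ndufs1 and Ndufa10, 4 fell, with a median of -1.18. All genes with unique windows and a mean of at least 20 CPM had medians of -0.32, -0.61 and -0.18 in the same 3 length classes, with 11.9%, 22.2% and 15.9% called lower, so that the middle class had the lowest median in both. The Spearman correlation of difference and length was -0.54 over the 54 subunits and 0.25 over 8417 such genes, of which 6350 were in the longest class. In mCherryHigh minus mCherryLow the value for the 54 subunits was 0.18.

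**Figure D5:**
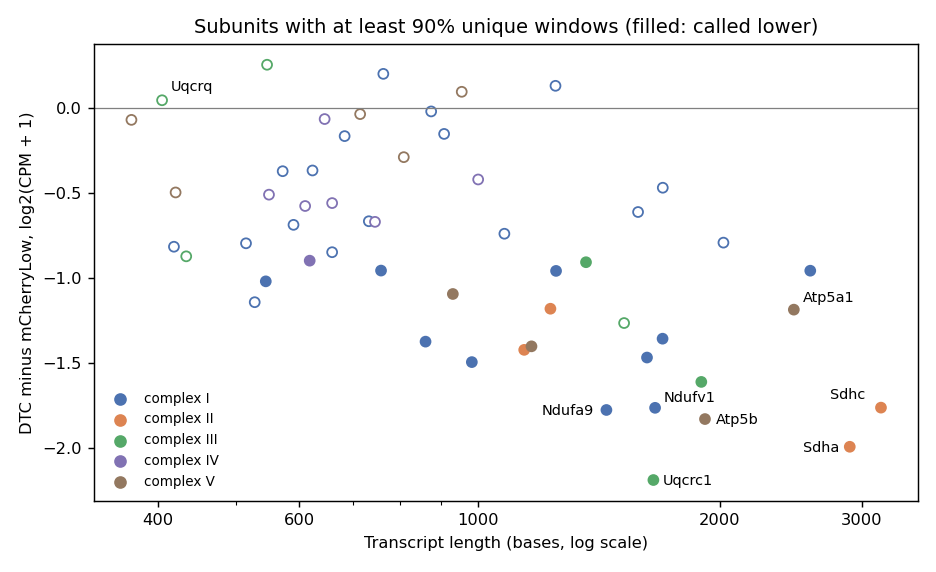
Difference DTC minus mCherryLow in log2(CPM + 1) (vertical axis) against transcript length in bases (horizontal axis, log scale) for the 54 subunits with at least 90% unique windows, coloured by complex and filled where called lower. Short subunits such as Uqcrq lie near 0, and Uqcrc1, Sdha and Atp5b lie lowest.

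The third comparison, DTC with mCherryHigh, shares its DTC libraries with the second and is given beside it. Of the 76 subunits 11 fell and 8 rose (limma, adjusted over 19700 genes), where 23.0% of all genes tested were called higher and 7.19% lower. Medians were -0.46 for complex I, -1.39 for complex II, -0.68 for complex III, -0.31 for complex IV and 0.00 for complex V, with -0.39 over all subunits beside 0.55 for all genes and -0.15 for those with a mean of at least 20 CPM. Uqcrc1 (-2.01), Ndufv1 (-1.74), Atp5b (-1.71), Ndufa9 (-1.65), Sdhc (-1.58), Sdha (-1.54), Uqcrc2 (-1.46), Ndufa8 (-1.34) and Sdhb (-1.23) were among those that fell. Sdhd, at 123, 183 and 66.0 CPM against 177, 219 and 183 CPM, overlapped and was not called (-0.74, limma adjusted p = 0.190). Ndufb8 was not called either (-0.43, limma adjusted p = 0.349), with DTC 2 at 161 CPM above mCherryHigh 1 at 158 CPM. The subunits that rose were Cox7c (4.43), Atp5g1 (4.07), Cycs (3.66), Atp5l (2.16), Ndufb2 (1.42), Ndufab1 (1.39), Atp5h (1.12) and Atp5g2, whose reads are too few for a fold. Atp5g2 had 1, 0 and 0 reads in mCherryHigh, and its DTC libraries alone sufficed for the filter, so its call carries no weight. Among the other rises, the call for Atp5h was lost under 10 of 17 alternatives, those for Ndufb2 and Ndufab1 under 6 of 17 and that for Atp5l under 6 of 16. Among the falls, the call for Uqcrc2 was lost under 5 of 17 alternatives and that for Sdhb under 3, quantile scaling and leaving out DTC 1 or mCherryHigh 1 among them. Among the 54 unique subunits 0 rose and 11 fell (median -0.57), and among the 22 others 8 rose and 0 fell (median 0.95). Of all genes with a mean of at least 20 CPM, 12.7% rose and 14.2% fell where windows were at least 90% unique. Under 90% these shares were 28.1% and 5.38%. By edgeR, 4 members were called higher and 19 lower, beside 3091 and 2198 of all 19700 genes. Without DTC 1, 4 members were higher and 6 lower, and without mCherryHigh 1, the shallowest library, 7 and 7. Without mCherryHigh 5 or 6 the counts higher were 4 and 5.

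The calls for Sdha, Uqcrc1, Ndufv1, Cox7c, Cycs and Atp5g1 held under all 17 alternatives in both DTC comparisons. In DTC minus mCherryLow, the difference ranged over them from -2.53 to -1.56 for Sdha and from -2.64 to -1.75 for Uqcrc1, and from 3.09 to 3.95 for Cox7c. Leaving out 1 library at a time gave 13 to 21 members called lower and 5 to 7 called higher in that comparison, with 13 lower without mCherryLow 6, 14 without DTC 1, mCherryLow 1 or mCherryLow 5, and 5 higher without DTC 1. Among the named falls against mCherryLow, those of Sdhd, Ndufa13 and Atp5a1 were lost under 7, 6 and 4 of the 17 alternatives, quantile scaling and leaving out DTC 1 among them.

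Isoforms and relatives of complex IV subunits other than Cox7a2l were low in all groups. Cox7b2, a form known from testis, was the exception in passing the test: 1.95, 1.78 and 1.85 CPM in mCherryLow, against 4.66, 3.37 and 2.35 CPM in mCherryHigh, and 7.61, 4.87 and 10.8 CPM in DTC (1.56 against mCherryLow, limma adjusted p = 0.0393). edgeR and DESeq2 did not call it, and with quantile scaling its difference was -0.38. The call was lost under 11 of 16 alternatives. Cox8b, the muscle form of Cox8a, had reads in 2 DTC libraries alone (5 and 2 reads), and Cox8c reached at most 9.32 CPM, in mCherryHigh 1. Cox7a1, the heart and muscle form of Cox7a2, ran from 0 to 6.83 CPM over the libraries, and Cox6b2, the testis form of Cox6b1, from 0 to 9.74 CPM. Markers of heart and skeletal muscle (8 genes) summed to 30.9 to 45.1 CPM in mCherryLow, 55.4 to 79.2 CPM for mCherryHigh and 123 to 164 CPM for DTC, with Myh6 at 0 in mCherryLow 6 and all mCherryHigh libraries, and their part in these levels was not tested. Cox7a2l, which bridges complexes III and IV in supercomplexes, was at 27.5 ± 7.46 CPM in mCherryLow, 23.8 ± 4.24 CPM in mCherryHigh and 37.2 ± 22.4 CPM in DTC (SD, n = 3), overlapping throughout.

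Of the 7 members that are not subunits, 1 was called, the complex I assembly factor Ndufaf4. It was at 66.3, 72.1 and 42.1 CPM in mCherryLow, but at 26.4, 35.0 and 30.9 CPM in mCherryHigh, and 73.1, 94.5 and 55.2 CPM in DTC. mCherryHigh was below both other groups without overlap, by -0.92 against mCherryLow (limma adjusted p = 0.497), and DTC rose over mCherryHigh by 1.22 (limma adjusted p = 0.0414), a call lost under 12 of 17 alternatives, edgeR, DESeq2 and leaving out any 1 mCherryHigh library among them. Ndufaf1, another assembly factor, was at 20.5 ± 9.52 CPM in DTC and 44.3 ± 1.05 CPM in mCherryLow (SD, n = 3) and did not pass (-1.17, limma adjusted p = 0.0579).

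Beyond the members, the list of the citric acid cycle, which feeds NADH and succinate to the chain, had most falls. This list also held the pyruvate dehydrogenase genes Pdha1, Pdhb, Dlat and Pdhx. In DTC against mCherryLow 9 of its 18 genes fell and 0 rose, with a median of -1.10, led by Dld, the shared dehydrogenase subunit of its multienzyme complexes (-1.74), and the oxoglutarate dehydrogenase Ogdh (-1.37). Against mCherryHigh 5 of 18 fell, with a median of -0.67. In mCherryHigh against mCherryLow 16 of 18 were negative, with a median of -0.24 and 0 called. Of all genes, 8.87% fell and 34.2% rose in DTC against mCherryLow, and 7.19% and 23.0% against mCherryHigh. Of 20 genes of mitochondrial protein import 4 rose in DTC against mCherryLow, a smaller share than the 34.2% of all genes, and 0 fell, with 11 positive and 9 negative and a median of 0.03. Those that rose were led by the channel protein Timm23 (2.28, 9.07% unique windows) and the chaperonin Hspe1 (2.12, 63.9%). Of the assembly factors of complexes III and IV 1 of 14 fell (Surf1, -1.49) and 1 rose (Lyrm7, 1.54), and of those of complexes II and V 1 of 6 fell (Tmem70, -1.65). Among 17 genes of mitochondrial genome upkeep and respiratory gene control, 3 rose and 1 fell against mCherryLow, both smaller shares than among all genes. Those that rose were the coactivator Ppargc1a (1.88), Tfam, which packs mitochondrial DNA (1.16), and the DNA-binding protein Ssbp1 (1.29). The mitochondrial RNA polymerase Polrmt fell (-2.12). Nrf1, the factor that drives many respiratory genes, was at 0.72 against mCherryLow (not called) and rose by 1.57 against mCherryHigh. Gabpa (-0.45) and Esrra (-0.64) were not called against mCherryLow, nor was the ATP synthase inhibitor Atpif1 (-0.03).

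Promoters were searched because binding motifs of NRF1 and of ETS factors of the GABP type are known in respiratory genes. RefSeq promoter windows (GRCm38.p6, 250 bases before to 50 after the start) matched 64 of the 76 subunits, with 69 windows. The NRF1 core GCGCATGCG, on either strand, was in 13.0% of these windows and in 1.75% of all 32851. The 9 genes with it were Ndufa8, Ndufa11, Uqcrc1, Uqcr11, Cox6a1, Atp5g2, Atp5k, Atp5l and Cycs, so that members that fell in DTC (Uqcrc1, Ndufa8) and members that rose (Cycs, Atp5l) both held it. The ETS motif CCGGAAGT was in 5 of the 64 genes (Ndufs3, Uqcr11, Uqcrh, Cox8a and Atp5h), which is 7.81% beside 4.31% of all genes. Windows of Sdha, Sdhb and Sdhd held neither. Ndufa8, which fell, and Cycs, which rose, are shown from 250 bases before the start up to it, on the minus strand at chr2:36049339-36049588 and chr6:50566570-50566819 of GRCm38.p6, with the NRF1 core in capitals.
Ndufa8 promoter: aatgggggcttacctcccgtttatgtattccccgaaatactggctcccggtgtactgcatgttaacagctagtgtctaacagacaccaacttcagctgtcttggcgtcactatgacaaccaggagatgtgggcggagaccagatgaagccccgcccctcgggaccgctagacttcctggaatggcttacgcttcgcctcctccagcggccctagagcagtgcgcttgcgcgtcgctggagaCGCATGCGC
Cycs promoter: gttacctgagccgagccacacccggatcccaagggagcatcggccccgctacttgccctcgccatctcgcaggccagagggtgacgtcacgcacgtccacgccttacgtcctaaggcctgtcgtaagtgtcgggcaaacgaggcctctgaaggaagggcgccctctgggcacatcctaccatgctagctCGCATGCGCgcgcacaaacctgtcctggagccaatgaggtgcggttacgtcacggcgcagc
The match ends 1 base before the start in Ndufa8 and lies 61 to 53 bases before it in Cycs.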

How the data were processed

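RNA-seq libraries of 9 sorted cell samples (3 groups of 3) were analysed. Per the labels' protocols, RNA came from the RNAqueous-Micro kit, cDNA from SMART-seq v4 and libraries from Nextera XT. Per the submitters' processing notes the build was mm9, while the sources used here name neither aligner nor counter (not given). The authors deposited CPM for 24012 genes. All CPM values were whole multiples of 1 read within 0.01 read (100%), so reads were recovered for the count tests. Where no read was counted, counting error leaves room for 3 reads, from 0.253 CPM in mCherryLow 6 to 4.66 CPM in mCherryHigh 1.

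Genes that reached 1 CPM in 3 or more of the 6 libraries compared were tested with limma 3.58.1 (R 4.3.3, mean-variance trend, two-sided) on log2(CPM + 1), so fold changes of low genes are understated. Calls used Benjamini-Hochberg adjustment over all genes at 0.05. Alternatives were pseudocounts of 0.5 and 5, no filter or a mean of at least 20 CPM, quantile, TMM and median-of-ratios scaling, edgeR 4.0.16, DESeq2 1.42.0, thinning, 1 fit of 9 libraries, leaving out each library, members with unique windows, and for the 6-week groups the replicate number or code series as a term. The procedure was tested on simulated data. Sequence windows came from GENCODE M21 on GRCm38, a later build than mm9, which held 94.0% of gene IDs and all 89 members.

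Named were Sdha, Cycs, Cox7c, Ndufb8, complex II, Cyc1, members called, those with the smallest p in each complex, isoforms, levels at either end per length and a few regulators, and some results under this rule are not reported here. Uqcrq, Uqcrh, Cox5a and Ndufb4 were named after their values were seen, as were genes in the sequence and promoter descriptions. Members and lists were chosen with earlier results of these data known.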

Additional observations from a re-analysis of the deposited data

How the results depend on the processing

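The 24 counts and medians by comparison kept their size within the spread between libraries, or counts within 1.5 times, in 360 of 448 repeats. The 88 that moved are given here, and the cause was not tested.

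In mCherryHigh minus mCherryLow, 0 members were called in each alternative. The median over all subunits went from -0.22 to -0.36 with DESeq2 and to -0.37 with edgeR, TMM and median-of-ratios scaling, and that of complex II from -0.31 to -0.46 in all 4. That of complex III was -0.39 with the code series as a term, and from -0.36 to -0.20 with 1 library left out.

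In DTC minus mCherryLow, 23 members were lower, and the count was 38 with DESeq2, 42 with TMM, 44 with edgeR, 41 with median-of-ratios, 12 with quantile scaling and 13 to 21 with 1 library left out. The count higher was 9, and it was 5 to 7 with 1 library left out and 1 (Cox7b2) among members with at least 90% unique windows. Medians over all subunits and then complexes I to V were -0.94, -1.04, -1.90, -1.19, -0.85 and -0.59 with DESeq2, -0.99, -1.13, -1.99, -1.27, -0.91 and -0.64 with TMM, and -1.11, -1.20, -2.05, -1.36, -1.01 and -0.75 with edgeR. They were -0.95, -1.08, -1.94, -1.22, -0.86 and -0.60 with median-of-ratios scaling, and -0.30, -0.47, -1.21, -0.48, -0.044 and 0.11 with quantile scaling. With 1 library left out, complex I ran from -0.83 to -0.50 and complex II from -1.79 to -1.30. Cox7b2 changed sign with quantile scaling (-0.38).

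In DTC minus mCherryHigh, 11 members were lower, and the count was 19 with DESeq2, 22 with TMM, 19 with edgeR, 18 with median-of-ratios scaling, 17 in 1 fit of 9 libraries, 6 with quantile scaling and 6 to 11 with 1 library left out. The count higher was 9, and it was 5 with TMM, 4 with edgeR, 1 (Ndufaf4) among members with unique windows and 4 to 9 with 1 library left out. The complex I median was -0.64 with DESeq2 and -0.65 with median-of-ratios scaling. Medians over all subunits and complexes I to V were -0.71, -0.78, -1.70, -1.003, -0.63 and -0.31 with TMM, -0.81, -0.88, -1.76, -1.09, -0.73 and -0.37 with edgeR, and -0.085, -0.26, -0.99, -0.33, 0.15 and 0.43 with quantile scaling.

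The 6-week groups share replicate numbers 1, 5 and 6, but same-numbered libraries did not deviate together (correlations of -0.20, -0.02 and 0.27). With the replicate number as a block 0 members were called, and the median over all subunits stayed at -0.22. No paired analysis was possible because the DTC libraries share only number 1 with each 6-week group. Depth limits the low members most in mCherryHigh 1, where 3 reads are 4.66 CPM.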
